A study of Mus musculus with 2 samples.

Results

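The genes of the cytosolic ribosomal proteins were examined in mouse macrophages with and without lipopolysaccharide. They were taken from the array annotation as the probe sets assigned to exactly 1 gene whose symbol is Rpl or Rps followed by a digit, or Rpsa, Rplp0, Rplp1 or Rplp2, leaving out the Rps6k kinases and the numbered pseudogenes. This gave 50 genes read by 106 probe sets, of 18193 genes read by 34945 probe sets with 1 gene each. Macrophages were grown from the bone marrow of C57BL6 mice in medium with serum and macrophage colony-stimulating factor, the cytokine that turns marrow precursors into macrophages. 1 culture condition received lipopolysaccharide (LPS), the Gram-negative outer membrane component sensed by Toll-like receptor 4, and the other, the control, did not. Neither the LPS dose, the time of exposure, the age and sex of the mice nor any pooling of animals is given in the labels. Total RNA of each condition was hybridized to 1 Affymetrix whole-genome mouse array, which gives 2 arrays without replicates, and no test could be made. Each difference is one between these 2 arrays, and their number limits the precision.

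A cytosolic ribosome is built from a small subunit, which reads the mRNA, and a large subunit, which forms the peptide bonds. Each holds ribosomal RNA and many small, mostly basic proteins, nearly all present as a single copy, so cells make these proteins in matched amounts. Their mRNAs are among the most abundant of a growing cell and begin with a terminal oligopyrimidine (TOP) tract, a C followed by an unbroken run of C and T bases, through which the growth kinase complex mTORC1 controls their translation. An array of total RNA measures the amount of these mRNAs and not how often they are translated.

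The start regions of the genes were searched for this tract. RefSeq (GRCm38.p6) gives 300 bases around the annotated start, 250 before and 50 from it on, for 44 of the 50 genes and for 38 of the 43 that encode structural proteins of the ribosome. At 8 of these 38 genes (21.1%) a C followed by at least 4 pyrimidines begins at the annotated start itself, against 3.01% of all 27025 genes in the same table and 2.96% of the 9495 measured ones. The 8 regions are shown because in them the tract lies at the annotated start, from 40 bases before the start to 20 from it on, 5′ to 3′. Capitals mark the tract at the start and, further upstream, the letters CCGGAAG.
Rpl35 (chr2:39005112-39005171, minus strand): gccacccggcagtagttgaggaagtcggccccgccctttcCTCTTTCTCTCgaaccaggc
Rps10 (chr17:27635225-27635284, minus strand): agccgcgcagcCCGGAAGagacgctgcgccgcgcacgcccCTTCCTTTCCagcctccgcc
Rps18 (chr17:33955646-33955705, minus strand): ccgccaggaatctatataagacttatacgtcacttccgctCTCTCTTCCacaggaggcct
Rps6 (chr4:86857348-86857407, minus strand): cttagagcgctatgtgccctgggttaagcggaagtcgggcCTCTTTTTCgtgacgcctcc
Rpl38 (chr11:114668540-114668599, plus strand): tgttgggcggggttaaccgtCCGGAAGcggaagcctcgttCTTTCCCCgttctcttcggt
Rps27 (chr3:90213629-90213688, minus strand): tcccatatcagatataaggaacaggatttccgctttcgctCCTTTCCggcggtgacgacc
Rpl14 (chr9:120571477-120571536, plus strand): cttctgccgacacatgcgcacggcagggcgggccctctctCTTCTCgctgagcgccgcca
Rplp2 (chr7:141447611-141447670, plus strand): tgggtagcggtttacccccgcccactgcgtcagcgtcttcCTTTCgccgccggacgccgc
Counted from the annotated start on, the tract ran from 11 bases at Rpl35 to 5 bases at Rplp2. At some genes, such as Rpl35 and Rpl14, the run of C and T bases also extends upstream of that start. Annotated starts can lie upstream of the start a cell uses, and a C followed by at least 6 pyrimidines stood somewhere in the first 50 bases of 24 of the 38 genes (63.2%), against 23.4% of all genes and 22.9% of measured genes, a search that also takes in the longer of the 8 tracts. The letters CCGGAAG, the core bound by ETS family factors, were found on either strand of the 300 bases of 19 of the 38 genes, against 9.93% of all genes and 20.1% of measured genes. GGGCGG, the Sp1 box, was in 57.9% of them, against 38.2% of all genes and 67.0% of measured genes, and AAGATGG, the core of the YY1 site, in 18.4%, against 7.28% and 8.41%. The E-box CACGTG was in 10.5%, against 8.09% and 11.7%, and TATAAA in 13.2%, against 15.7% and 9.19%. These are matches of letters in a window and not measured sites.

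The labelled cell type matched its markers on both arrays. All 6 macrophage markers examined were above the floor, which is each array's own median signal (26.7 on the LPS array and 35.1 on the control array), with summed signals of 30389 on the LPS array and 30296 on the control array. Of 14 markers of T cells, B cells, neutrophils, fibroblasts, erythroid cells and mast cells, 1 reached the floor on the LPS array and 2 on the control array. The 11722 measured genes are those that reached the floor on at least 1 array. Their median log2 ratio (LPS over control) was -0.42 as deposited, but this shift was uneven along the signal scale. Without the ribosomal protein genes, the median was -0.64 in the log2 band 5 to 8 (both arrays averaged) and -0.44 in the band 8 to 10. Brighter bands had medians of -0.07 (10 to 12), -0.07 (12 to 13) and -0.04 (13 to 14). The all-gene median therefore does not describe the brighter genes. The median was -0.05 for the hybridization control RNAs (SD 0.12, 18 probe sets) and -0.29 for the poly-A controls, which the standard protocol adds before labelling (SD 0.23, 24 probe sets). Actb, whose 3′ signal over its 5′ signal shows how intact the RNA was, gave a quotient of 1.13 on the LPS array and 1.15 on the control array.

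The ribosomal protein genes differed little between the arrays. Of the 50 genes, 47 were measured: 46 were above the floor on both arrays, and Rps4l reached it on the LPS array alone. Rps16 (10.1 on the LPS array and 1.81 on the control array), Rpl3l (3.28 on the LPS array and 20.2 on the control array) and Rpl39l (1.5 on the LPS array and 8.15 on the control array) lay under it on both. Each of these was read by 1 probe set of its own, and whether that probe set reads the mRNA was not tested. None passed 2-fold: 0 of the 47 were higher on the LPS array by that size and 0 lower, against 8.22% and 26.2% of all measured genes, or 34.5% either way. Their log2 ratios had a median of -0.17 (SD 0.18 across genes) and ran from -0.81 to 0.30. Of the 47, 45 lay within 0.5 of 0, whereas 39.4% of all measured genes did, a background not matched for brightness. Among bright genes, defined below, all 35 members and 71.9% of the 256 others lay within 0.5 of 0. With plain probe sets alone (names without an s, x or a suffix), 16 of 22 members did, against 38.6% of all measured genes. As deposited 43 of the 47 were below 0, against 71.1% of all measured genes, but 4 were below 0 after centring on the all-gene median, against 50% of all measured genes, and 11 with poly-A scaling, against 57.2%. The 4 above 0 as deposited, against 28.9% of all measured genes, were Rps9, Rps27, Rps4l and Rpl7l1. Under loess 38 were below 0, against 50.2%. With centring or poly-A scaling 0 members passed 2-fold in either direction, where 13.1% of all measured genes were higher and 15.3% lower after centring, and 11% higher and 18.2% lower with poly-A scaling. The members' median turned to 0.26 with centring and 0.12 with poly-A scaling, and it was negative under quantile normalization (-0.23), loess on signal (-0.24) and scaling to the hybridization controls (-0.12). The direction of the family as a whole was therefore not settled by these arrays, and the ratios below are as deposited, so that centring adds 0.42 to each of them. In bulk RNA, fewer cells and less RNA per cell cannot be told apart.

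**Figure D1:**
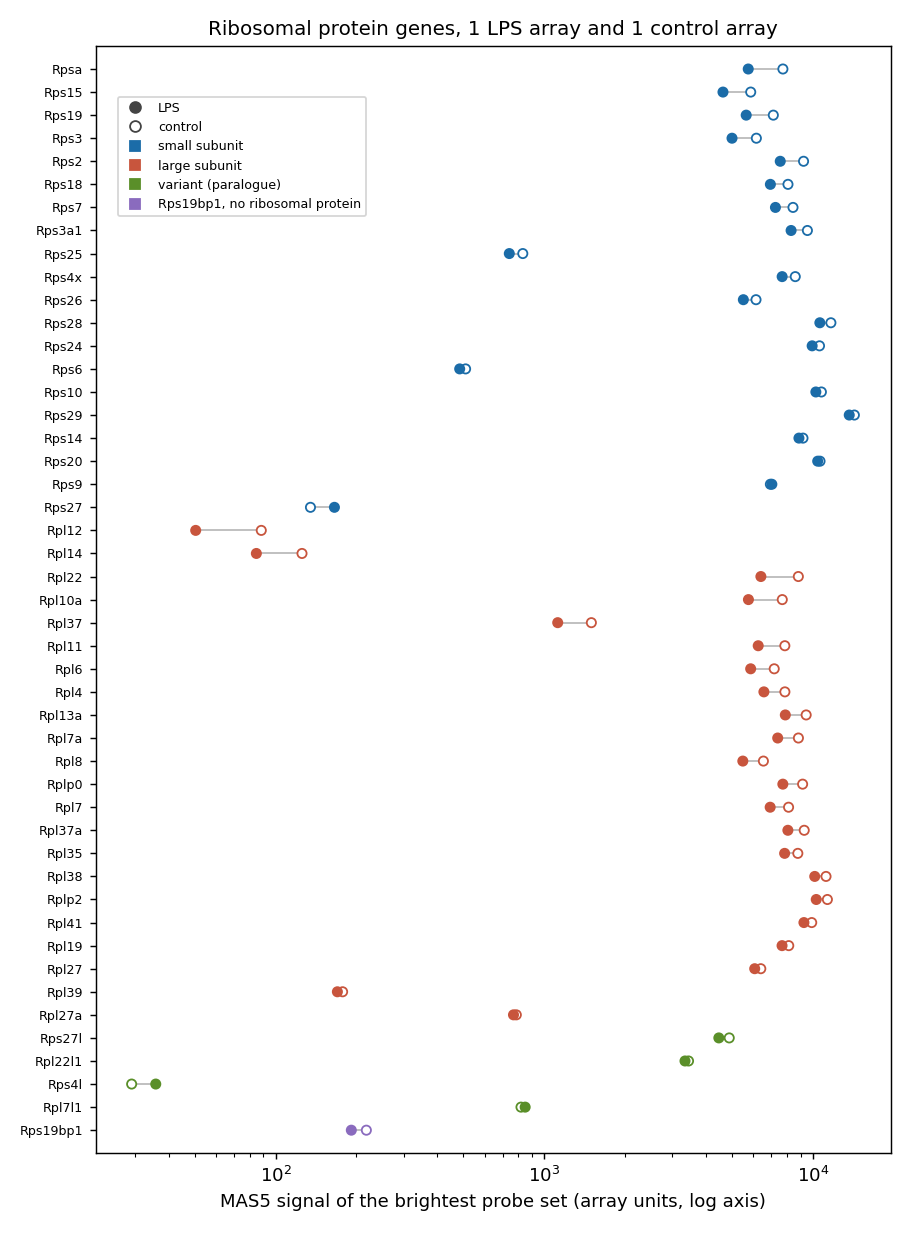
MAS5 signal (log axis, array units) of the brightest probe set of each of the 47 measured genes on the LPS array (filled) and the control array (open), grouped by subunit and ordered by ratio. Most pairs lie close together near the bright end, with the LPS point slightly to the left as deposited (centring moves most to the right), and Rpl12 has the widest gap.

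The small subunit genes were close to each other. Of 20 measured genes that encode its structural proteins, 18 were below 0 as deposited, against 71.1% of all measured genes. After centring on the all-gene median 1 was below 0, against 50% of all measured genes. The median log2 ratio as deposited was -0.16 (from -0.43 to 0.30). Rpsa, whose product is also known as the laminin receptor precursor, had signals of 5744 on the LPS array and 7731 on the control array, a log2 ratio of -0.43 and the lowest of this subunit. Rps15 followed, with 4626 on the LPS array and 5867 on the control array (-0.34; its other probe set -0.25). Rps19, the gene most often mutated in Diamond-Blackfan anaemia in humans, had 5645 on the LPS array and 7122 on the control array (-0.34). These genes stood near the low end of the family, but none reached 1.5-fold.

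Other small subunit genes had nearly the same signal on both arrays. Rps29, which encodes a small zinc-binding protein, gave 13651 on the LPS array and 14264 on the control array, a log2 ratio of -0.06, and its 3 probe sets ranged from -0.06 to -0.05. Rps20 had 10417 on the LPS array and 10627 on the control array (-0.03), and Rps14, whose loss in humans marks a form of myelodysplastic syndrome, 8870.5 on the LPS array and 9183 on the control array (-0.05). Rps10 had 10255 on the LPS array and 10752 on the control array (-0.07), yet its 5 measured probe sets, all bright, ranged from -0.45 to -0.07. Rps9 had 7033 on the LPS array and 6944 on the control array, a log2 ratio of 0.02 that turns to -0.11 under quantile normalization and to -0.04 under loess. It and Rps27 were the structural genes above 0.

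Rps6 encodes the protein that the S6 kinases phosphorylate downstream of mTORC1, and its own probe set gave 484 on the LPS array and 509.5 on the control array, a log2 ratio of -0.07 that turns to 0.38 under loess and 0.21 under quantile normalization. Rps25, which in yeast and mammalian cells is needed for translation from some internal ribosome entry sites, had 741 on the LPS array and 832 on the control array (-0.17). Probe sets that the annotation shares between these genes and others were not assigned to them here. Rps27 was read by 1 probe set of its own, with 166 on the LPS array and 135 on the control array, a log2 ratio of 0.30 and the highest of the family. Under loess it was at 1.06, the 1 gene past 2-fold in that setting, where 13.9% of all measured genes were higher by that size and 12.5% lower.

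The large subunit genes lay slightly lower than those of the small subunit as deposited, with ranges that overlap. All 22 measured genes were below 0, against 71.1% of all measured genes, with a median of -0.25 (from -0.81 to -0.04). After centring on the all-gene median, 3 of the 22 were below 0, against 50% of all measured genes, and the median was 0.17. The difference between the subunits was not tested. Rpl22, which binds RNA outside the ribosome too and is needed for the development of mouse alpha-beta T cells, had 6402 on the LPS array and 8825 on the control array, a log2 ratio of -0.46. Rpl10a had 5754 on the LPS array and 7690.1 on the control array (-0.42), and Rpl37 had 1122 on the LPS array and 1497 on the control array (-0.42). The lowest ratios of the subunit came from dim probe sets: Rpl12 had 50.4 on the LPS array and 88.4 on the control array (-0.81, or 1.75-fold lower), and Rpl14 had 84.8 on the LPS array and 125 on the control array, a log2 ratio of -0.56 that turns to 0.23 under loess and 0.06 under quantile normalization. Rpl12 was the 1 member past 1.5-fold, at which size 42% of all measured genes were lower and 13% higher, and loess brought it to -0.10.

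At the other end of the large subunit, Rpl27a had 768 on the LPS array and 787 on the control array, a log2 ratio of -0.04 that turns to 0.26 under loess and 0.11 under quantile normalization. Rpl39, whose product lines the exit tunnel for the new peptide, was read at 169.8 on the LPS array and 178 on the control array, a log2 ratio of -0.06 that turns to 0.67 under loess and 0.48 under quantile normalization. Rpl38, which in mouse embryos is needed for the translation of some Hox mRNAs, had 10156 on the LPS array and 11188 on the control array (-0.14). As deposited none of these differed by as much as Rpl22 or Rpl10a, but under loess Rpl39 did. Over both subunits, as deposited, the 8 lowest ratios ended with Rps19 at -0.34 and the 8 highest began with Rps10 at -0.07, and every other measured structural gene lay between them.

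The stalk of the large subunit recruits the translation factors that hydrolyse GTP. Rplp0, which anchors it, had 7727 on the LPS array and 9154 on the control array (-0.24). Rplp2, 1 of the acidic proteins attached to Rplp0, had 10289 on the LPS array and 11319.7 on the control array (-0.14). Rpl12 forms the base of the stalk with Rplp0, and its dim probe set is described above. Rplp1 had no probe set of its own in the annotation and was not analysed here.

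Several ribosomal proteins are known to act outside the ribosome. Rpl11, which binds and inhibits the p53 ligase Mdm2, had 6256 on the LPS array and 7861 on the control array (-0.33). Rps3, whose product is also a partner of NF-kB dimers, had 4998 on the LPS array and 6158 on the control array (-0.30). Rpl13a, which in human monocytes leaves the ribosome after interferon-gamma and silences inflammatory mRNAs within the GAIT complex, had 7893 on the LPS array and 9437 on the control array (-0.26). Its 4 probe sets disagreed, with a 2nd bright one also at -0.26 and the others at -0.58 and -0.82. The probe set at -0.82 had 904 on the LPS array and 1597 on the control array. The median over them was -0.42. With Rpsa, the 4 measured genes of this kind had a median of -0.32. Each lay below 0 as deposited, where 71.1% of all measured genes did. After centring on the all-gene median 1 of the 4 was below 0, against 50% of all measured genes. Rpl5 and Rpl23, which also bind Mdm2, had no probe set of their own.

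Variant genes encode relatives of a ribosomal protein, and some of them can take its place in some cells. Of 6 with a probe set of their own, 4 were measured, with log2 ratios from -0.13 to 0.05. Rpl22l1, which in mouse cells is made in larger amounts when Rpl22 is missing, had 3340.5 on the LPS array and 3443 on the control array, a log2 ratio of -0.04, while Rpl22 was at -0.46. Rpl7l1 had 849 on the LPS array and 819 on the control array, a log2 ratio of 0.05 whose 3 probe sets ran from -0.44 to 0.32, while Rpl7 was at -0.23 (from -0.33 to -0.23 over 3 probe sets). Rps27l, a target of p53, had 4465 on the LPS array and 4881 on the control array (-0.13, with all 3 probe sets between -0.17 and -0.13). Rps27, read by its 1 dim probe set, was at 0.30. Rps4l was read near the floor, at 35.8 on the LPS array and 29.1, under the floor, on the control array (0.03 against the floor), while Rps4x was at -0.16. In 3 of these 4 pairs the variant had the higher ratio as deposited, and the difference was not tested. Rpl3l, a gene of heart and skeletal muscle, and Rpl39l, a gene of the testis, were under the floor on both arrays. Rps19bp1, which the symbol rule takes in although it encodes a binding partner of Rps19 and no ribosomal protein, had 191 on the LPS array and 218 on the control array (-0.19).

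The spread between probe sets of the same gene is a repeat measure within these arrays, though they share the RNA. In 16 genes with 2 or more probe sets at a mean log2 signal of 12 or above, that is about 4096 signal units, the ratios of those probe sets differed by a median of 0.07 and by at most 0.38 (Rps10). Most of those probe sets carry an s, x or a suffix in their names. Whether they share sequence, and so repeat the same reading, was not tested. The 5 bright probe sets of Rpl35 lay between -0.19 and -0.15, the 4 of Rps24 between -0.10 and -0.05, and the 3 of Rps18 between -0.24 and -0.20. Rps29, towards the upper end of the family, was at -0.06, and the 2 bright probe sets of Rpl22, towards the lower end, were at -0.46 and -0.39. These genes were picked by their ratios, and whether genes differ by more than this spread was not tested.

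Dim probe sets of the same genes gave wider ratios. A 3rd probe set of Rpl22 had 101 on the LPS array and 411 on the control array (-2.02), although its bright ones were at -0.46 and -0.39. A 2nd one of Rps3 had 80.8 on the LPS array and 289.9 on the control array (-1.84), and in the opposite direction a 3rd one of Rps9 had 296 on the LPS array and 91.1 on the control array (1.70). A dim probe set of Rps24 was at 0.86, with 111 on the LPS array and 61.1 on the control array. These 4 genes had the widest ranges of the family. Over all probe sets of the members at a mean log2 signal under 10 the SD was 0.79 (22 probe sets), and over those at 12 or above it was 0.11 (63 probe sets). What transcript each dim probe set reads was not tested.

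**Figure D2:**
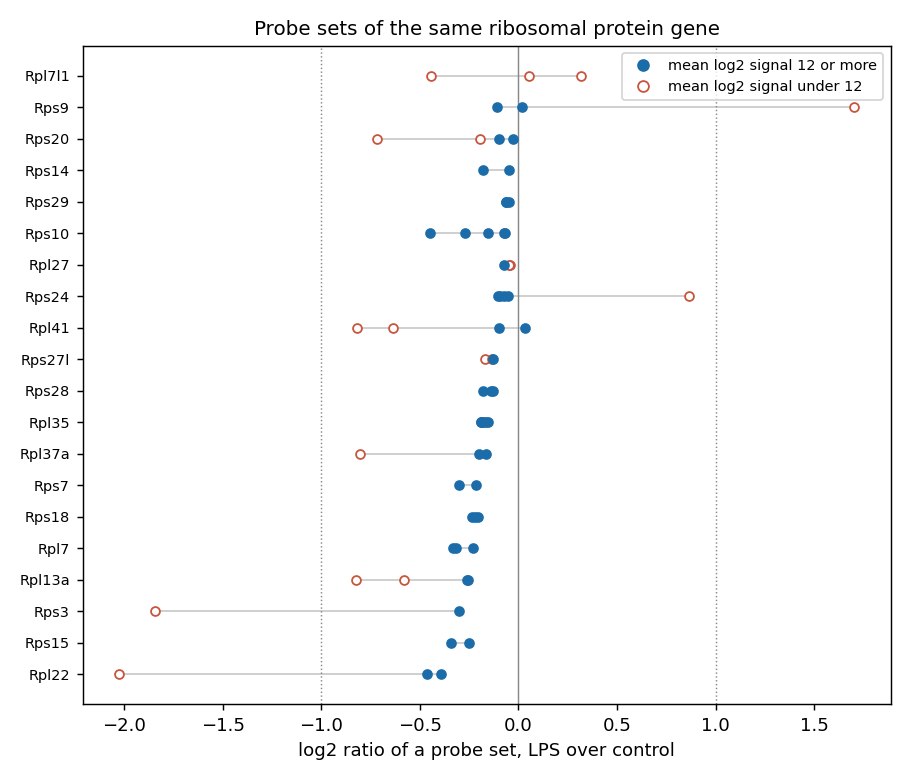
Log2 ratio (LPS over control) of every measured probe set of the 20 genes with 2 or more, bright ones filled and dimmer ones open, with dotted lines at 2-fold. Bright probe sets of a gene lie close together, while single dim ones of Rpl22, Rps3 and Rps9 lie beyond the dotted lines.

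Another 110 probe sets list a ribosomal protein symbol together with pseudogenes or other genes and so name no single gene. Of these, 104 were measured, with a median log2 ratio of -0.21 and a range from -1.63 to 0.57. Of the 104, 0 were at least 2-fold higher and 4 lower, against 8.22% and 26.2% of all measured genes. As deposited 94 were below 0, where 71.1% of all measured genes were, and 17 after centring, where 50% were. The 70 at a mean log2 signal of 12 or above ran from -0.45 to 0.03, with 69 below 0 as deposited and 2 after centring. Of the 256 genes that bright outside the members, 58.2% were below 0 as deposited and 15.6% after centring. The shared probe sets were hybridized to the same RNA and can share sequence with the members, whose own bright probe sets ran from -0.46 to 0.03.

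The range of the members has to be read against brightness. The 35 members with a mean log2 signal of 12 or above had a median of -0.20 (SD 0.12) and ran from -0.46 to 0.02. The 256 other genes in that signal range had a median of -0.06 (SD 0.54), of which 17 passed 2-fold upwards and 1 downwards. As deposited 34 of the 35 bright members were below 0 and 58.2% of the others. After centring 2 of the 35 were below 0 and 15.6% of the others. In the brightest band, 13 to 14, the 15 members had a median of -0.14 (SD 0.08) and the 46 other genes -0.04 (SD 0.25), and 0% of those others passed 2-fold. Between 12 and 13 the 20 members had a median of -0.26 (SD 0.12), and the other genes -0.07 (SD 0.58). After loess the 35 bright members were at -0.28, all 35 below 0, and the other bright genes at -0.11, with 60.5% below 0. After centring the median was 0.22 for the bright members and 0.36 for the others. The median of the bright members was the lower of the 2 under each of the settings listed under processing, a difference that was not tested. The largest signal seen was 14015 on the LPS array and 14444 on the control array, and whether the ratios of the brightest genes are compressed was not tested.

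**Figure D3:**
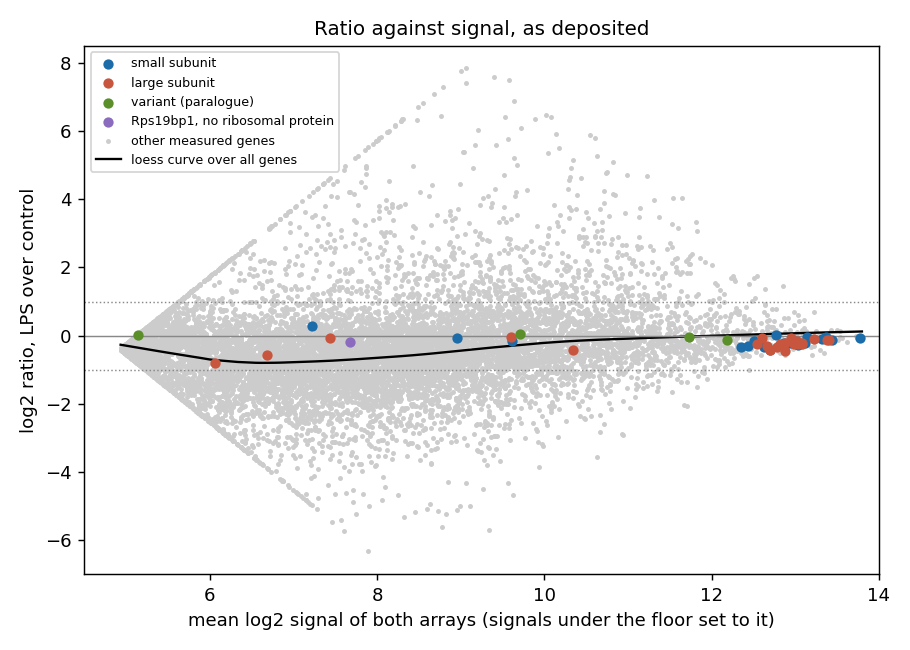
Log2 ratio (LPS over control) against the mean log2 signal of both arrays for all 11722 measured genes (grey), with the ribosomal protein genes in colour, the loess curve in black and dotted lines at 2-fold. The members gather at the bright end, just below 0 as deposited (above it after centring), within 0.5 of it except for 2 dim large subunit genes.

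The start tract was set against the ratios as a description. The 8 structural genes with a tract at the annotated start had a median log2 ratio of -0.14 (from -0.56 to 0.30), and the 29 measured ones without it -0.24 (from -0.81 to 0.02). With the wider search of the first 50 bases the medians were -0.21 in 24 genes with a tract and -0.20 in 13 without. For CCGGAAG they were -0.16 in 19 genes with it and -0.26 in 18 without. For the other motifs the median was lower in the genes that hold them: -0.24 with GGGCGG and -0.18 without, -0.30 with CACGTG and -0.20 without, -0.24 with AAGATGG and -0.20 without, and -0.24 with TATAAA and -0.20 without. The ranges overlap in each case.

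Other genes of the translation apparatus were more spread out as deposited, without matching for brightness. Fau, which encodes a ribosomal protein fused to a ubiquitin-like one, had 7358 on the LPS array and 8172 on the control array, a log2 ratio of -0.15, within the range of the members. Of 17 measured translation genes whose mRNAs also begin with a TOP tract, 0 passed 2-fold upwards and 1 downwards. Of all measured genes 8.22% passed upwards and 26.2% downwards. The median of the 17 was -0.32, beside -0.42 for all measured genes, and turns to 0.10 after centring. The gene past 2-fold was Eif4b, an activator of the cap-binding helicase, with 629.5 on the LPS array and 1929 on the control array (3.06-fold lower). The elongation factor gene Eef1a1 had 11694.5 on the LPS array and 12066 on the control array (-0.05), and Npm1, a nucleolar chaperone gene, 2739.5 on the LPS array and 4638 on the control array (-0.76).

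Ribosome assembly genes differed in both directions. Of 27 measured assembly and RNA polymerase I genes, 3 passed 2-fold upwards and 3 downwards as deposited, where 8.22% of all measured genes passed upwards and 26.2% downwards. Centring and quantile normalization each gave 5 upwards and 1 downwards, and loess 7 and 1. The median of -0.02 turns to 0.40 after centring and 0.59 under loess. The large subunit assembly gene Rrs1 had 1277.5 on the LPS array and 328 on the control array, 3.90-fold higher. Rrp9, which encodes a protein of the U3 small nucleolar particle, had 94.0 on the LPS array and 21.8, under the floor, on the control array, at least 2.68-fold higher, and the small subunit export gene Ltv1 was 2.23-fold higher. Wdr12, which takes part in large subunit assembly, had 45.2 on the LPS array and 163 on the control array, 3.61-fold lower, and the pseudouridine synthase gene Dkc1 and the polymerase subunit gene Polr1c were 2.46-fold and 2.09-fold lower. Of 76 measured mitochondrial ribosomal protein genes, 1 passed 2-fold upwards and 10 downwards as deposited, against the same 8.22% and 26.2% of all measured genes. Centring gave 2 upwards and 1 downwards, loess 4 and 0, and quantile normalization and poly-A scaling each 1 and 3. The median of -0.32 turns to 0.10 after centring and 0.14 under loess. Mrpl52 had 2644 on the LPS array and 689.6 on the control array (3.83-fold higher), and Mrpl34 had 236 on the LPS array and 656 on the control array (2.78-fold lower). As deposited the SD of the log2 ratios was 0.42 over the TOP translation genes, 0.82 over the assembly genes and 0.56 over the mitochondrial ribosomal protein genes, against 0.18 over the cytosolic ribosomal protein genes and 1.24 over all measured genes. Under loess the order was the same, but the SD was 0.38 over the TOP translation genes and 0.32 over the members. With plain probe sets alone the order changed: the SD was 0.64 over both and 0.61 over the mitochondrial genes. The differences in spread were not tested.

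**Figure D4:**
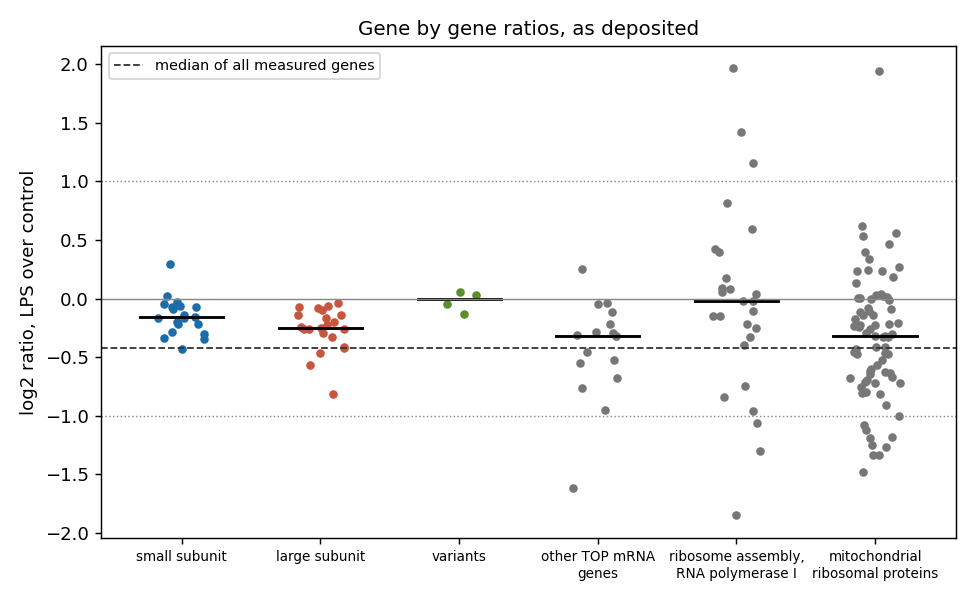
Log2 ratio (LPS over control) of each measured gene, with a bar at each group's median, the dashed line at the median of all measured genes (-0.42) and dotted lines at 2-fold. As deposited the small and large subunit genes all lie inside the dotted lines, and assembly and mitochondrial ribosomal protein genes lie beyond them on both sides.

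Centring and scaling to control RNAs shift every gene by the same amount, whereas quantile normalization and loess move dim and bright genes differently. The SD across the members was 0.18 as deposited and after centring, 0.29 under quantile normalization, 0.32 under loess, which lifts dim genes, and 0.64 with plain probe sets alone, many of which are dim.

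**Figure D5:**
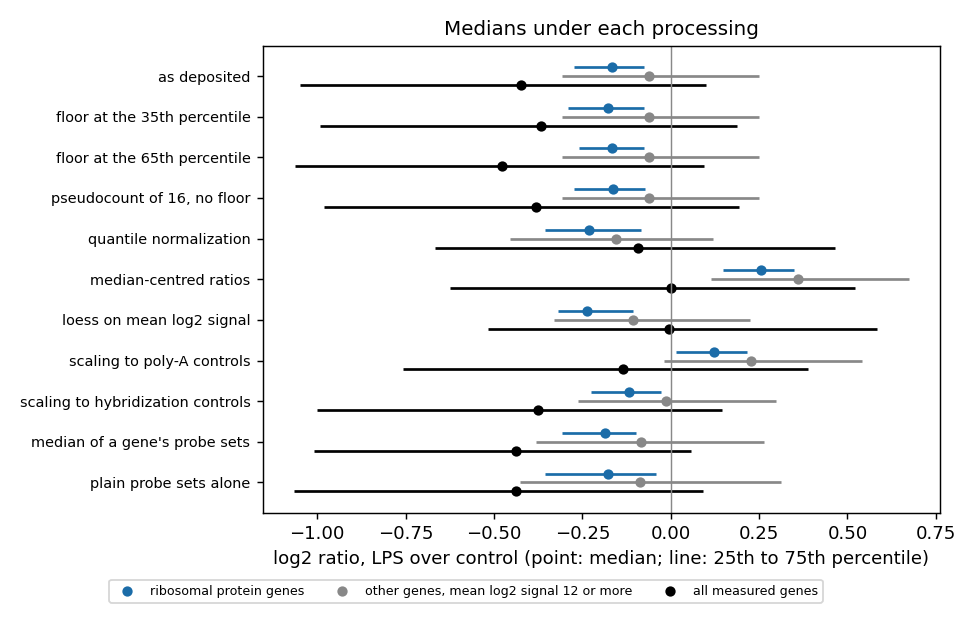
Median (point) and 25th to 75th percentile (line) of the log2 ratio, LPS over control, under each processing, for the ribosomal protein genes, the other genes at a mean log2 signal of 12 or above, and all measured genes. The ribosomal protein median lies right of 0 after median centring (0.26) and scaling to the poly-A controls (0.12) and left of 0 under the other settings drawn.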

How the data were processed

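Arrays were assigned to the LPS or the control group by their titles. The authors deposited linear intensity values for each probe set, and the submitters' processing notes name MAS5. Its version and scaling target, detection calls and a genome build are not given there. A signal under an array's median over non-control probe sets (the floor) was set to it, genes under it on both arrays were left out, and each gene was read by its brightest probe set (mean log2 signal). A ratio is the log2 LPS signal less the log2 control signal. Gene names came from the platform annotation; all 50 members had the same symbol in the RefSeq gene table.

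The members, lists, 2-fold size and alternatives were chosen with earlier results of these data known. Genes were named by rule: the 8 highest and 8 lowest structural members, stalk, variant and parent genes, genes with roles outside the ribosome, Rps6, Rps19, Rps25, Rps27a and Rpl38, and the 4 with the widest range between probe sets. Examples from the comparison lists, the promoter motifs and the search of the first 50 bases were chosen after values or sequences were seen. Rpl3, Rpl10, Rpl10l, Rpl36a, Rpl36al and Rps27a had no probe set of their own. Protein identities were not computed, since no protein table was used here. Alternatives were a floor at the 35th or the 65th percentile, adding 16 in place of a floor, quantile normalization, median centring, loess (span 0.4), scaling to either set of control RNAs, plain probe sets alone (those without an s, x or a suffix), the median over the probe sets of each gene, and sizes of 1.5-fold or 3-fold. Steps were tested on simulated arrays with the same shift and noise at every signal, so a shift or noise that varies with signal was not covered. Python 3.11.15, pandas 2.3.3 and statsmodels 0.14.6 were used.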

Additional observations from a re-analysis of the deposited data

How the results depend on the processing

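The count of members at least 2-fold higher was 0 as deposited and 1 under loess (Rps27) and with plain probe sets alone (Rps9, 1.70), where 22 members were measured. The count at least 2-fold lower was 0 as deposited, and 1 with the median over each gene's probe sets (Rps3), 1 with plain probe sets alone (Rps3) and 1 at 1.5-fold (Rpl12); both counts were 0 under the other alternatives. By construction these cases use other probe sets, a smaller size or a curve that lifts dim genes. Of all measured genes, 13.9% were at least 2-fold higher under loess, and 825 of 10201 with plain probe sets alone. At least 2-fold lower were 2983 of 11772 with the median over each gene's probe sets and 2736 of 10201 with plain probe sets alone. At 1.5-fold 42% of all measured genes were lower. The medians of all members, of small subunit genes and of large subunit genes turned to 0.26, 0.26 and 0.17 with median-centred ratios and to 0.12, 0.13 and 0.040 with scaling to the poly-A controls, since each shifts every gene alike. Elsewhere they stayed negative, between -0.28 and -0.11. Of 31 named and measured genes, 23 changed sign with median centring, 17 with poly-A scaling, 5 with quantile normalization (Rps29 came to 0), 6 with loess, 3 with scaling to the hybridization controls and 1 with plain probe sets alone (of 17), and 0 with the other alternatives. No paired analysis was possible because each group holds 1 array, and for the same reason no replicate could be left out. Dim probe sets limit what the signals can show, and saturation of bright ones was not tested.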

Other observations

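The array also carries control probe sets for 18S ribosomal RNA, the RNA of the small subunit, which were used in no comparison. The 5′ one had a signal of 10682 on the LPS array and 10763 on the control array, and the middle one had 10360.4 on the LPS array and 11104 on the control array. The 3′ one had 4708 on the LPS array and 6975 on the control array. Ribosomal RNA has no poly-A tail and the sources used here do not say how the RNA was primed, so these signals are given as values alone.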
